A study of Mus musculus with 4 samples.

Results

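Channels and sensors through which mechanical force and emptied calcium stores open a calcium path into the cell were examined in retinal endothelial cells (ECs). The 10 genes were 2 Piezo channel genes (Piezo1 and Piezo2), 3 genes of the transient receptor potential (TRP) family (Trpv4, Trpc1 and Trpm7), 2 polycystin genes (Pkd1 and Pkd2) and 3 genes of store-operated calcium entry (Orai1, Stim1 and Stim2). They were chosen by gene symbol, with earlier results of these data known, and all 10 were found among the 26822 genes of the table. The ECs came from C57BL/6J mice at postnatal day 6 (P6), a stage at which vessels are still growing across the retina. Retina pairs were dissociated with collagenase, and viable cells with CD31 and without CD45 on the surface were sorted. The 4 RNA-seq libraries form 1 group that the labels give as control, with no mutant, treated or second tissue beside it, so genes were compared with genes inside the same libraries. The study describes the libraries as independent, whereas the labels do not say whether they came from separate animals, and the p-values below measure the spread between these 4 libraries, part of which may be technical.

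Piezo proteins are pores that open when the membrane is stretched, and PIEZO1 is known in endothelium as a sensor of blood flow. TRP channels are cation channels that respond to many inputs, and the polycystins are their relatives, best known from the primary cilium. In store-operated entry, STIM proteins in the membrane of the endoplasmic reticulum (ER) sense that the calcium store has emptied and open ORAI pores in the plasma membrane.

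The values are read counts per gene that the authors normalised between libraries and rounded. A long transcript collects more reads than a short one at the same abundance. Levels of different genes were therefore compared per kilobase (kb) of exon, except in counts against a minimum and where values are named as deposited. Values without that division are called normalised counts as deposited. A gene with a mean of at least 10 was called detected. All 10 genes were detected, against 56.0% of all genes in the table. As deposited, 7 of them had a mean of at least 1000, against 19.7% of all genes, detected or not. Stim1 lay just under that line, at 999 ± 119 (SD, n = 4 libraries, as for all values below). Counts against 10 or 1000, here and below, use values as deposited and so favour long genes. Over detected genes, these values rose with exonic length (Spearman rho 0.27). Per kb of exon, 8 of the 10 lay above the median of the 15000 detected genes with a known exonic length, which was 161, and only Orai1 lay above their 90th percentile, which was 854. The median of the 10 genes was 313 per kb.

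The library totals ran from 14844071 to 15017432. The 18 endothelial marker genes were all detected, and their summed normalised count ran from 99302 to 103683. Library 4 was the highest in markers of some other cell types. Its summed photoreceptor markers stood at 14761, against 5061 to 6222 in the other libraries, and its summed pericyte and smooth muscle markers at 3904, against 596 to 2307. All 12 photoreceptor markers and 9 of 11 pericyte markers were highest in that library. Library 2 was the lowest in summed pericyte and smooth muscle markers, at 596 against 2115 to 3904. It was also the lowest in summed astrocyte markers, at 103 against 687 to 1171. Microglia and leukocyte markers summed to between 29 and 166, and Ptprc, which encodes CD45, stood at 11, 1, 1 and 0 in libraries 1 to 4. In bulk RNA, fewer cells of a type and less RNA per cell cannot be told apart.

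The Piezo genes are described first, by library. Piezo1 had normalised counts of 4487, 4498, 4202 and 3475 in libraries 1 to 4, or 4165.5 ± 480, and library 4 was the lowest. Piezo2, which is best known as the channel of touch and body position sense in sensory neurons, stood at 3227, 2772, 2810 and 2768, or 2894 ± 223. Libraries 2 to 4 of Piezo2 lay within a narrow band and library 1 above it. Piezo1 (ENSMUSG00000014444) spans chromosome 8, 122481698 to 122551329, on the minus strand of GRCm38, with 8219 bases of exon in 51 blocks. Piezo2 (ENSMUSG00000041482) lies on chromosome 18, from 63010213 to 63387183, and its exons are longer, at 10863 bases.

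Per kb of exon, Piezo1 stood at 546, 547, 511 and 423 in libraries 1 to 4 and Piezo2 at 297, 255, 259 and 255. Piezo1 was thus higher in 4 of 4 libraries, by 0.92 ± 0.16 on the log2 scale, or 1.90-fold. The exact two-sided permutation test of 4 values against 4 gave p = 0.0286, the smallest it can give, and every pair of genes without overlap reaches that value. With Benjamini-Hochberg adjustment over all pairs of detected genes this became 0.0321, and the same 2 values hold for each pair below that is said not to overlap. Such a pair is common: 89.0% of all pairs of detected genes did not overlap per kb. The test, here and below, leaves out that both genes come from the same libraries. Piezo1 made up 65.4% ± 2.47 of the summed Piezo level per kb. Its share was lowest in library 4, at 62.4%, and highest in library 2, at 68.2%. Of the exonic bases of Piezo1, 990 (12.0%) overlap exons of Ctu2 on the opposite strand. Ctu2 had a mean normalised count of 741.5, and whether the counting used strand is not given in the sources used here.

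**Figure D1:**
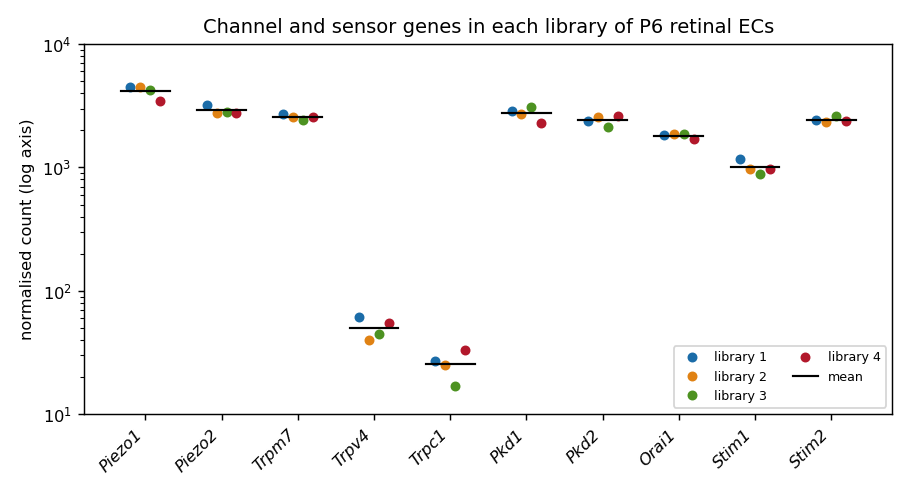
Normalised count as deposited (log axis) of each of the 10 genes in the 4 libraries of P6 retinal ECs, with points for libraries and bars for means. The other genes lie at 887 or more in every library, the lowest being Stim1 in library 3, while Trpv4 and Trpc1 lie between 17 and 61.

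Other channels that respond to membrane tension or swelling were listed beside the Piezo genes. Tmem63a and Tmem63b, members of a family of channels gated by membrane tension, stood at 276 ± 55.2 and 321 ± 32.3 per kb. Piezo1 did not overlap with either, at 1.85-fold and 1.57-fold higher per kb. Absence of overlap held for 89.0% of all pairs of detected genes. Kcnj2, an inwardly rectifying potassium channel known to respond to flow in ECs, stood at 322 ± 63.7 per kb, and Lrrc8a, the core subunit of the volume-regulated anion channel, at 115 ± 16.5. Of this list of 9 genes, 4 were detected. The other 5 genes, among them Kcnk2 and the hair cell channel genes Tmc1 and Tmc2, had means under 10.

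The 2 polycystin genes were both well above the detection minimum. Pkd2 encodes the TRP-like channel subunit, and its normalised counts were 2375, 2555, 2123 and 2591 in libraries 1 to 4. Pkd1 encodes the large membrane protein that assembles with it, and it stood at 2882, 2728, 3083 and 2309. On the scale as deposited, the 2 genes overlapped, with library 4 the lowest of Pkd1 and the highest of Pkd2. The exons of Pkd1 (chromosome 17, 24549834 to 24596508) add up to 14686 bases and those of Pkd2 (chromosome 5, 104459450 to 104505819) to 5219. Per kb of exon, Pkd2 stood at 462 ± 41.0 and Pkd1 at 187 ± 22.4. The 2 genes did not overlap, as was so for 89.0% of all pairs of detected genes. Pkd2 was higher in 4 of 4 libraries, 2.47-fold. That order rests on the division by length, since as deposited the log2 difference of Pkd1 over Pkd2 was 0.19. Pkd1 shares 693 bases, or 4.72% of its exons, with Tsc2 on the opposite strand, which had a mean of 2781.

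Pkd2 made up 71.1% ± 4.22 of the summed level of both polycystins per kb, from 66.0% in library 3 to 75.9% in library 4. Of the 7 other genes of the polycystin list, 2 were detected. Pkd2l2 stood at 22.6 ± 3.14 per kb and Pkd1l3 at 5.92 ± 4.15, and the other 5 genes had means under 10. Because polycystins are best known from the primary cilium, genes of ciliary transport were listed beside them. All 10 of these were detected, 1 of them at 1000 or more. Ift20 was the highest per kb at 798 ± 17.1, followed by Kif3a, a subunit of the motor that carries cargo out along the cilium, at 302 ± 20.2.

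The 3 TRP genes differed widely in level. Trpm7, a channel for magnesium and calcium fused to a protein kinase, had normalised counts of 2704, 2557, 2417 and 2571. Trpv4, which opens on warmth, swelling and lipid messengers, stood at 61, 40, 45 and 55. Trpc1, a subunit that assembles with other TRPC proteins, stood at 27, 25, 17 and 33. Library 1 was the highest of Trpm7 and Trpv4, and library 4 the highest of Trpc1. At the level of Trpv4 and Trpc1 the data show steps, that is, values over-represented among all genes. They include 28 and 47 in library 1, 19, 31 and 44 in library 2, and 30 and 42 in library 4. In library 3 they include 19, 32 and 45, and 45 is the value of Trpv4 there. The values of Trpv4 and Trpc1 may thus rest on few reads, whose number is unknown.

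Per kb of exon, Trpm7 stood at 361 ± 16.5, Trpv4 at 15.6 ± 2.94 and Trpc1 at 5.59 ± 1.45. Their values did not overlap between libraries, as was so for 89.0% of all pairs of detected genes. Trpm7 was 23.0-fold higher than Trpv4 and 63.6-fold higher than Trpc1, and Trpv4 was 2.76-fold higher than Trpc1. Among the 15000 detected genes, Trpm7 stood at the 68.6th percentile per kb, while Trpv4 had a percentile of 16.9 and Trpc1 of 5.82. With a detection minimum of 30, Trpc1 would not count as detected.

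**Figure D2:**
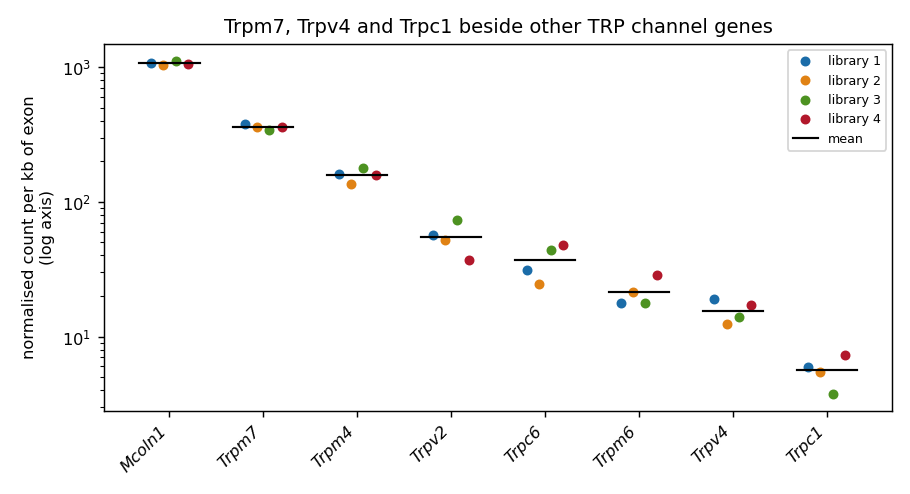
Normalised count per kb of exon (log axis) of Trpm7, Trpv4, Trpc1 and 5 other TRP channel genes, with points for the 4 libraries and bars for means. Mcoln1 and Trpm7 lead at 1074 and 361 per kb, and Trpv4 and Trpc1 lie at 15.6 and 5.59.

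Of the other TRP genes, 19 were analysed and 9 of them were detected. Mcoln1, which encodes a calcium release channel of the lysosome, was the highest TRP gene analysed, at 1074 ± 36.5 per kb, and it was the only one of the 19 with a mean of at least 1000. Mcoln1 made up 57.2% ± 1.04 and Trpm7 19.2% ± 1.13 of the summed TRP level per kb, while Trpv4 made up 0.826% ± 0.140 and Trpc1 0.299% ± 0.0792. Each of the 3 genes was also set against other genes of its subfamily. Trpm7 was 17.1-fold higher per kb than Trpm6, the other channel kinase, and 2.27-fold higher than Trpm4, a calcium-activated channel for monovalent cations. Trpv4 was 3.42-fold lower than Trpv2, which stood at 54.9 ± 15.2 per kb. Trpc1 was 6.33-fold lower than Trpc6, which opens on diacylglycerol and stood at 37.0 ± 10.9 per kb. Trpc4 and Trpc5, the closer relatives of Trpc1, had means of 6.25 and 1 as deposited, under the detection minimum, and were not tested. None of the tested pairs overlapped, as was so for 89.0% of all pairs of detected genes.

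In store-operated entry, the pore and both sensors were detected in every library. Orai1, which encodes the pore, had normalised counts of 1829, 1848, 1864 and 1701, and library 4 lay slightly below the other libraries. Stim1, the main ER calcium sensor, stood at 1167, 976, 887 and 967, and library 1 was its highest. Stim2, a sensor that responds to smaller losses of ER calcium, stood at 2402, 2322, 2610 and 2383. Library 3 was thus the highest of Stim2 and the lowest of Stim1.

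Orai1 (ENSMUSG00000049686, chromosome 5, 123015074 to 123030456, plus strand) has only 1875 bases of exon, in 2 blocks. Per kb it was the highest of the 10 genes, at 966 ± 39.7 and the 92.4th percentile of detected genes, although as deposited it stood at the 81.5th. Stim2 stood at 490 ± 25.3 per kb and Stim1 at 225 ± 26.7. Stim2 was 2.19-fold higher than Stim1, by 1.13 ± 0.21 on the log2 scale, and made up 68.6% ± 3.14 of their sum. Orai1 was 4.31-fold higher per kb than Stim1, 3.24-fold higher than Orai3 and 15.1-fold higher than Orai2. In none of these pairs did the values of the 2 genes overlap between libraries, as was so for 89.0% of all pairs of detected genes. Orai1 made up 72.7% ± 0.465, Orai3 22.4% ± 0.878 and Orai2 4.82% ± 0.650 of the summed Orai level per kb. The ratio of the 2 Stim genes to the 3 Orai genes, per kb, was 0.554, 0.510, 0.534 and 0.557 in libraries 1 to 4. The ratio thus moved little between libraries, at 0.539 ± 0.0216.

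The detected genes most like Orai1 per kb over the 4 libraries were Hsd17b10, a mitochondrial dehydrogenase, Myzap, which encodes a junction-associated protein, and Gabarap, an autophagy protein. Their root mean square log2 differences from Orai1 were 0.0140, 0.0189 and 0.0210. This likeness is in level and in its course over 4 libraries only.

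**Figure D3:**
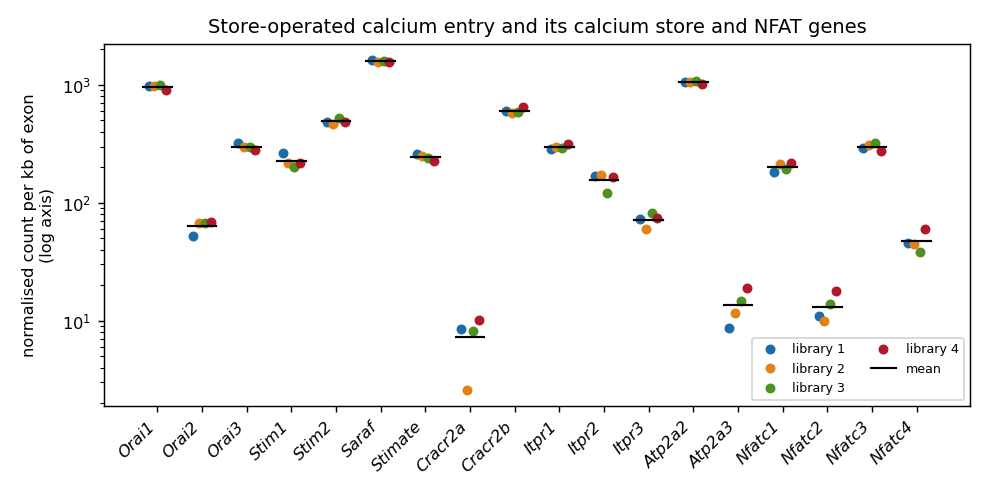
Normalised count per kb of exon (log axis) of a selection of 18 genes from store-operated entry, ER calcium release, ER calcium pumps and NFAT factors, with points for the 4 libraries and bars for means. Of the genes drawn, Saraf, Atp2a2 and Orai1 are highest at 1581, 1050 and 966 per kb, and Cracr2a, Nfatc2 and Atp2a3 are lowest at 7.34, 13.1 and 13.5.

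All 11 other genes of store-operated entry were detected, 6 of them at 1000 or more. Saraf, which encodes an ER protein that damps STIM activity, stood at 1581 ± 23.0 per kb, Septin4 at 1471 ± 47.9 and Cav1, the coat protein of caveolae, at 1354 ± 13.9. Per kb, Saraf thus stood above Orai1 and both Stim genes. Stimate, an ER protein that promotes STIM activation, stood at 244 ± 14.5. Cracr2a and Cracr2b encode cytosolic regulators of the channel, and they lay far apart, at 7.34 ± 3.28 and 605 ± 29.5 per kb.

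The store itself was represented by 18 genes, of which 15 were detected, 8 of them at 1000 or more. Atp2a2, the widely expressed ER calcium pump, stood at 1050 ± 26.9 per kb, and Tmco1 and Micu2 followed at 1032 ± 23.8 and 860 ± 71.5. Itpr1 was the highest of the 3 inositol trisphosphate receptor genes at 299 ± 12.9, ahead of Itpr2 at 156 ± 23.5 and Itpr3 at 72.0 ± 9.07. The 3 ryanodine receptor genes had means of 15, 9.25 and 2.25 as deposited for Ryr2, Ryr1 and Ryr3. Downstream of calcium entry, 14 of 15 genes of calmodulin, calcineurin and NFAT were detected, 9 of them at 1000 or more. Calm2 and Calm3, which encode calmodulin, stood at 1404 ± 16.6 and 1174 ± 199.6 per kb. Nfatc3 and Nfatc1 led the NFAT factors at 299 ± 21.9 and 200.3 ± 16.7, and Ppp3r2 was listed at 0 in all libraries.

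Partners of Piezo and TRP channels were also listed. All 15 analysed genes were detected, 6 of them at 1000 or more. Pecam1, Plxnd1 and Trpc4ap were the highest per kb, at 1462 ± 19.4, 1410 ± 35.5 and 1377 ± 14.8. Pecam1 encodes CD31, on which the cells were sorted, and it is also in the endothelial list, so its level is no finding. Mdfic, which encodes a protein known to bind Piezo channels, stood between 61.6 and 92.3 per kb.

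The full order of the 10 genes per kb was Orai1, Piezo1, Stim2, Pkd2, Trpm7, Piezo2, Stim1, Pkd1, Trpv4 and Trpc1. This order rests on the division by length: as deposited, Piezo1 was the highest, at 4165.5, and Orai1 stood at 1810.5. Of the 45 pairs, 40 did not overlap between libraries, against 89.0% of all pairs of detected genes, so the count is near that of any genes. The 5 pairs that did overlap lie next to or near each other in the order. Values of Piezo1, Stim2 and Pkd2 overlapped: by the exact permutation test, p was 0.743 for Piezo1 against Stim2, 0.257 for Piezo1 against Pkd2 and 0.343 for Stim2 against Pkd2, with log2 differences of 0.04 ± 0.19, 0.13 ± 0.25 and 0.09 ± 0.20. Piezo2 against Stim1 gave an exact p of 0.114, and Stim1 against Pkd1 an exact p of 0.0571. Like the tests of all other pairs, both leave out that the genes share their libraries. Within libraries, Piezo2 was above Stim1 in 4 of 4, by 0.25 ± 0.09 on the log2 scale, and Stim1 above Pkd1 in 3 of 4, by 0.26 ± 0.24. Adjusted over all pairs, these 5 values were 0.754, 0.270, 0.357, 0.123 and 0.0628. Between all other neighbours in the order there was no overlap.

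**Figure D4:**
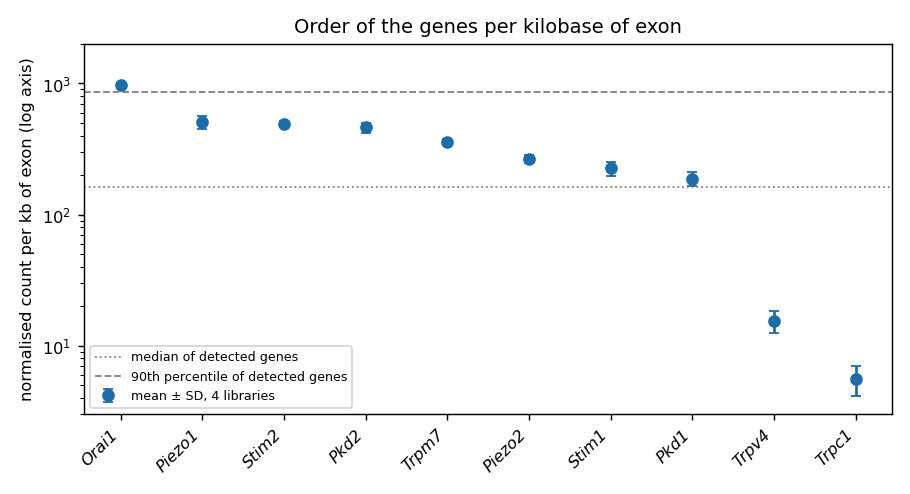
Normalised count per kb of exon (log axis) of the 10 genes, as mean ± SD over 4 libraries, with the median (161) and the 90th percentile (854) of all detected genes as lines. Orai1, at 966, lies above the upper line, and Trpv4 and Trpc1, at 15.6 and 5.59, lie far below the median.

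Variation between libraries was read against genes of the same level. For no member did the SD of the log2 values exceed the trend at a robust z over 3, whereas 3.31% of detected genes did. Piezo1 came nearest, with an SD of 0.18 against a trend of 0.06 and a z of 2.94, and Pkd1 followed at 2.15. Piezo1 passed with a z of 3.58 without library 3 and fell to 0.72 without library 4, so most of its spread came from library 4. Piezo2, Stim1 and Pkd2 had z values of 0.81, 0.82 and 1.08, and the other 5 genes lay below the trend. The z of Trpv4 and Trpc1 was -0.63 and -0.52, since genes at their level vary much between these libraries.

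Library 4 was the highest library for 2 of the 10 genes, Pkd2 and Trpc1, against 30.6% of detected genes, and the lowest for 4, Piezo1, Piezo2, Pkd1 and Orai1, against 33.1% of detected genes. Piezo2 stood at 2768 there, only 4 below library 2. Set against the mean of libraries 1 to 3, library 4 had a log2 ratio of -0.34 for Piezo1 and -0.33 for Pkd1, and 0.50 for Trpc1. For the other 7 genes it lay between -0.12 and 0.17. The median over the 10 genes was -0.05, against -0.01 over all detected genes. In the same library the median ratio was 1.46 over the photoreceptor markers, 0.60 over the markers of progenitors and Müller glia, of which 8 of 12 were highest there, 1.14 over the pericyte markers and -0.03 over the endothelial markers. Of the endothelial markers, 11 of 18 were lowest there. The part of these other cells in the lower Piezo1 and Pkd1 and the higher Trpc1 was not tested.

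**Figure D5:**
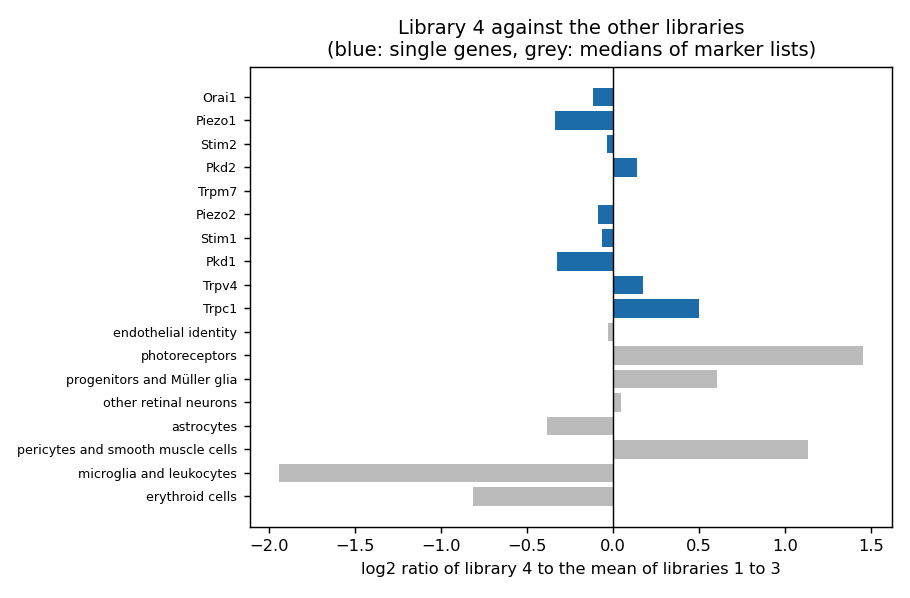
Library 4 relative to the mean of libraries 1 to 3, as a log2 ratio, for each of the 10 genes (blue) and as the median of each marker list (grey). Piezo1 and Pkd1 lie at -0.34 and -0.33 and Trpc1 at 0.50, while the photoreceptor list lies at 1.46 and the endothelial list at -0.03.

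Promoter sequence was read from RefSeq on GRCm38.p6, as the 250 bases before the annotated start of each gene, and 9 of the 10 genes matched an entry, all but Piezo2. By GENCODE M21, some windows reach into exons of their own gene, by 116 bases in Pkd1, 27 in Trpc1, 24 in Stim2, 13 in Stim1 and 7 in Pkd2. That of Orai1 overlaps an exon of Gm2479 on the opposite strand. The windows of 3 genes are printed here, 5′ to 3′ on the strand of the gene: Orai1 (chr5:123014824-123015073, plus strand), the highest gene per kb, Piezo1 (chr8:122551330-122551579, minus strand), the only one with a TATA match, and Trpv4 (chr5:114658422-114658671, minus strand), a gene of low level. Capitals mark the GC box letters GGGCGG on either strand and the TATA letters TATAAA.
Orai1: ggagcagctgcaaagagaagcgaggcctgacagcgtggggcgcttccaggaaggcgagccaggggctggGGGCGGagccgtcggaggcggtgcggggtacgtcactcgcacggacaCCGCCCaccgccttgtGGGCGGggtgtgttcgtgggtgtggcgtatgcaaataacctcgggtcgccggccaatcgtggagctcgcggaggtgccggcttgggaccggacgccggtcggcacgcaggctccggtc
Piezo1: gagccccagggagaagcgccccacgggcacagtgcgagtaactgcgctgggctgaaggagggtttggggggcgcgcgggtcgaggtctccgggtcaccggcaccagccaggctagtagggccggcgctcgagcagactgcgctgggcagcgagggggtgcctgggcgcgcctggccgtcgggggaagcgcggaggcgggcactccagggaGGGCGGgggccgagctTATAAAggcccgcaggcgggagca
Trpv4: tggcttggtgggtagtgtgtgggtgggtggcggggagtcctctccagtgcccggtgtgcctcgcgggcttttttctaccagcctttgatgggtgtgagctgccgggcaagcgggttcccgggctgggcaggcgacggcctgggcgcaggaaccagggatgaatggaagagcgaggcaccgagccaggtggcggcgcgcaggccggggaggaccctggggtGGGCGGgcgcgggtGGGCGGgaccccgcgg

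These windows hold GC boxes at both ends of the range of levels, 3 in Orai1, 1 in Piezo1 and 2 in Trpv4. Over the 9 genes, 7 windows held GGGCGG or its reverse CCGCCC, against 32.7% of all 32851 windows and 56.1% of those of detected genes. Trpm7 and Pkd2 held none. TATAAA or TTTATA occurred only in Piezo1, with its first base 24 bases before the start, against 12.4% of all windows and 6.54% of those of detected genes. The TEAD letters GGAATG or CATTCC occurred only in Pkd2, against 12.6% of all windows and 10.6% of those of detected genes. The ETS letters CCGGAAG or CTTCCGG occurred in none of the 9, against 6.91% of all windows and 12.7% of those of detected genes. These motifs did not overlap each other in the 9 windows. The GC content ran from 52.8% in Pkd2 to 78.4% in Stim1, against a median of 52.4% over all windows and 59.6% over those of detected genes. The number of CpG dinucleotides ran from 4 in Pkd2 to 31 in Stim1, against a median of 15 in windows of detected genes. A match is a stretch of letters and says nothing of whether a factor binds there.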

How the data were processed

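RNA was measured in 4 libraries of ECs sorted from P6 mouse retinas. Per the labels, libraries were stranded, made from poly(A) RNA and read from a single end over 75 bases, although the label on RNA isolation names another EC type. The authors deposited read counts per gene that had been normalised and rounded, and these were handled as a score. Aligner, genome build and normalisation of the mouse data are not given in the sources used here. The submitters' processing notes name FastQC. Of the gene identifiers found in GENCODE M21 (GRCm38), 99.2% had the same positions there. The depth behind a value is unknown, so there is no counting interval and no count model.

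For 11 symbols on more than 1 row, only the highest row was used. Levels were log2((value + 1)/kb), a scale that understates differences of genes near 0. Lengths were the merged exons of GENCODE M21 basic transcripts, some of which may not be present in these cells. Folds are 2 raised to the mean log2 difference. Pairs of genes were compared by the exact two-sided permutation test (70 splits), with Benjamini-Hochberg adjustment over all 112492500 pairs of detected genes. With 3 libraries, where this test cannot go below 0.1, only overlap was read. Variation was the SD of log2(value + 1) relative to a lowess trend (fraction 0.2, 3 iterations), scaled by the local spread of genes around it. That scaling was set after the data had been seen, in place of 1 scale for all genes, and neither version called any of the 10 genes.

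The 10 genes and all lists were chosen with earlier results of these data known, and the promoter windows and motifs with their levels known. The text names all 10 genes, the 2 or 3 highest per kb of each other list, the genes of 16 related pairs and the 3 genes nearest to the highest. Some results under this rule are not reported here. Other listed genes that are named, among them Trpc4, Trpc5, those of the Kcnk, Tmc, Itpr, Ryr, Nfatc, Cracr2 and Ppp3 families, Lrrc8a, Atp2a3, Stimate and Mdfic, were chosen after their values were seen. Alternatives were values as deposited, the longest transcript, other pseudocounts, minimums and trends, 2 scalings and leaving out each library. Python 3.11.15, NumPy 2.4.6, pandas 2.3.3, SciPy 1.17.1, statsmodels 0.14.6 and Matplotlib 3.10.9 were used.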

Additional observations from a re-analysis of the deposited data

Results flagged for a closer look

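Piezo2 in library 1 lay far from the other libraries, at a normalised count of 3227 against 2768 to 2810. The gap to the nearest library was 0.908 of the whole range, above Dixon's 95% critical value for 4 values. Chance gives about 1 such gene in 20, or 0.5 among the 10 genes, and 6 of the 80 other listed genes with a mean of at least 10 showed it too. In the same library the astrocyte markers summed to 1171, against 103 to 832 in the others, with Aqp4 at 0 in all libraries, and the microglia and leukocyte markers to 166, against 29 to 124. Their part in the Piezo2 value was not tested. Without library 1, Piezo1 was above Piezo2 per kb by 0.94 on the log2 scale. That direction was bound to hold, since Piezo1 was the higher gene in each library.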

How the results depend on the processing

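Of 144 values of the 16 related pairs under other settings, 143 kept their direction with no overlap. Many of these could hardly differ from the main setting. A pair without overlap in 4 libraries has none in any 3 of them, and scaling a library moves both genes almost alike. In the main setting, 89.0% of all pairs of detected genes did not overlap. Without division by exonic length, Pkd1 over Pkd2 turned from -1.31 to 0.19 on the log2 scale and the genes overlapped, so this order is set by the length used. The number of the 45 pairs without overlap was 38 as deposited, 31 with a detection minimum of 30, which drops Trpc1, and 40 to 41 under the others. These counts leave out direction. As deposited, mean Orai1 fell below Piezo1, at a log2 difference of -1.19, and below Piezo2, Pkd1, Trpm7, Stim2 and Pkd2. It stayed above Stim1, Trpv4 and Trpc1. Stim2, Pkd2 and Trpm7 fell below Piezo2 and Pkd1. Stim2 and Pkd2 also fell below Trpm7, and Stim1 below Pkd1. The other pairs kept their direction. The count of genes varying above the trend, 0, became 1 with a detection minimum of 100, where Piezo1 had a z of 3.22, and lay between 0 and 1 when each library was left out. Scaling to equal totals or by median ratio factors, which ran from 0.994 to 1.008, moved the genes lowest in library 4 from 4 to 3. All 50 levels recomputed without 1 library or with median ratio factors stayed within 1 SD. This was bound to be so and is no check. Leaving out 1 of 4 values cannot move their mean by 1 SD, and the factors differed little between libraries. Of the 104 genes of the other lists, 80 were detected, and 75 at a minimum of 30. With 1 group there were no groups to pair, and a sign-flip test of the 4 differences within libraries, which cannot go below 0.125, was not run for pairs of genes. The variation measure with 1 scale for all genes was an alternative added after seeing the data. Orders between genes rest on exonic lengths that no test here covers, reads behind low values are unknown, and 4 libraries of 1 group say nothing of other ages, tissues or genotypes.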
